A study of Saccharomyces cerevisiae with 68 samples.

Results

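RM11-1a, a haploid derivative of a vineyard isolate of the budding yeast Saccharomyces cerevisiae, was compared with the laboratory strain DBY8268 at 25C, before any heat was applied. The comparison consisted of the 2 arrays labelled RM11-1a at 25C, out of 68 in the series. Both were 2-colour microarrays, on which RNA of RM11-1a and RNA of DBY8268 were hybridised to the same spots with the dyes exchanged between the arrays. All cultures were in log phase in the rich medium YPD, with no agent added. The 4 groups used as a background were DBY8268, a strain of S288c background that was the common partner, and K9, M22 and YPS163, which are sake, vineyard and oak strains and were each compared with DBY8268 on 2 arrays of their own. The other 60 arrays followed heat shock at 37C in the 5 strains, and the 12 of RM11-1a and 12 of DBY8268 are used below only to ask which spots gave a value.

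Each value below is a log2 ratio of a strain over DBY8268, so that 1 is 2-fold, and a ratio shows a difference between strains, not an absolute level. RM11-1a as commonly distributed is of mating type a and carries deletions of LEU2 and URA3, and the labels give no genotype, mating type or ploidy for any of the strains. In yeast, a-specific genes make the a pheromone, its exporter and the receptor for alpha pheromone, and haploid-specific genes encode the shared signalling pathway. Diploid cells that carry both mating types repress both sets. Strains also differ in mobile elements, in the introns of mitochondrial genes and in gene families near chromosome ends, and a DNA spot designed on S288c reads a lower signal from RNA that is missing or divergent without telling these apart.

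The labels of both arrays name RM11-1a in 1 channel and DBY8268 in the other as the source of RNA, while their strain field gives 1 name for both channels. The direction was checked on known markers. LEU2 (YCL018W), which encodes an enzyme of leucine synthesis, had a value on array 2 only, −5.57, against −0.29 to 1.08 on the 6 arrays of the other strains. URA3 (YEL021W), of uracil synthesis, likewise read −6.43 on array 2 only, against −1.11 to −0.19. Both markers were thus far lower in the channel labelled RM11-1a than in any other strain. Of the endonuclease gene HO, which is disrupted in the usual RM11-1a, neither RM11-1a array held a value. Alpha-specific genes were hardly measured. SAG1, the alpha agglutinin, read −0.28 and −0.19, and MF(ALPHA)1, MF(ALPHA)2 and STE3 each had a value on 1 array (−1.62, 0.76 and 0.19).

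The 2 RM11-1a arrays held values for 5347 and 5515 of 6297 reading frames, within the 4587 to 5659 of the other 25C arrays. Their medians were −0.02 and 0.01, their SDs were 1.01 and 0.975, and they correlated across 5254 genes with r = 0.820, where genes are not independent replicates. Only 0.666% of genes held the same value on both. No reading frame with a value on fewer than 6 of the 8 arrays at 25C, or on none of a strain's arrays, was tested. This left 5306 genes. A further 302 frames had an RM11-1a value but were not tested, and 689 had none. Whether the 2 arrays hold RNA of different cultures is not given in the labels. The p-values therefore describe the spread between arrays, part of which can be technical, and the number of arrays (n = 2) limits the precision.

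RM11-1a differed from DBY8268 in 764 of 5306 genes (14.4%), called at an adjusted p of limma below 0.05. Of these, 411 (7.75%) were higher and 353 (6.65%) lower in RM11-1a, and 470 (8.86%) differed at least 2-fold, 235 in each direction. The median over all tested genes was −0.03. Both RM11-1a arrays were measured for 729 of the called genes, and in 728 of these they had the same sign. The calls were made from these same arrays, so this agreement was nearly fixed in advance and is no independent check. The plot of array 1 against array 2 shows the spread of the genes measured on both. Leaving out array 1 reduced the called genes to 351 and leaving out array 2 to 508.

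**Figure D1:**
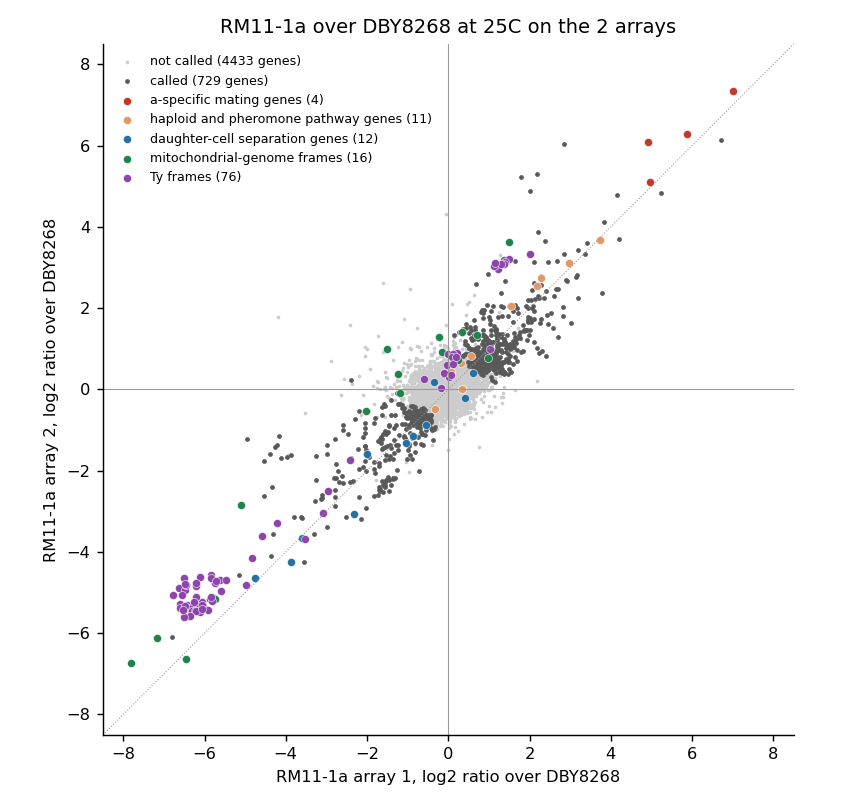
Each point is a gene with a value on both RM11-1a arrays, with the log2 ratio over DBY8268 on array 1 on the x axis and on array 2 on the y axis; coloured points mark gene groups and the dotted line marks equal values. The 2 arrays correlate with r = 0.820, and the a-specific genes lie at the upper right and most Ty frames at the lower left.

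RM11-1a was then set against the mean of K9, M22 and YPS163, a contrast in which the shared DBY8268 cancels. This called 333 genes (6.28%), 215 higher (4.05%) and 118 lower (2.22%), with 276 (5.20%) at least 2-fold apart. Of the 764 genes called over DBY8268, 219 (28.7%) were called in this contrast too, 545 were not, and 114 genes were called against the other strains but not against DBY8268. The pairwise contrasts called 341 genes against K9 (6.43%), 283 against M22 (5.33%) and 380 against YPS163 (7.16%). A set of 88 genes was called with the same sign against the mean and against each of the 3 strains, 60 of them higher and 28 lower in RM11-1a, and 21 of the 88 were Ty frames. Among the 333 called genes, both RM11-1a arrays lay above all measured arrays of the other strains in 176 and below them in 82. Lack of overlap was thus common among called genes and does not single out those named below. How often it occurred over all tested genes was not counted.

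The a-specific genes were far higher in RM11-1a than in DBY8268, and STE2 had the highest ratio of all tested genes. Of all tested genes 7.75% were called higher over DBY8268 and 4.05% against the other strains. STE2 (YFL026W), the receptor for alpha pheromone, read 7.01 and 7.34 on the RM11-1a arrays, against −0.67 to 0.80 on 5 arrays of the other strains. Its fitted ratio was 7.18 (SE 0.21, adjusted p = 6.02e-06), a 144-fold difference. MFA1 (YDR461W), a precursor of a pheromone, read 5.88 and 6.28, against −0.58 to 0.36 elsewhere. The groups did not overlap for either gene. The fitted ratio of MFA1 was 6.08 (SE 0.19, adjusted p = 6.77e-06). The exporter of a pheromone, STE6 (YKL209C), read 4.96 and 5.11 (fitted 5.04, SE 0.16, adjusted p = 7.18e-06), against −0.86 to −0.09. AGA2 (YGL032C), the binding subunit of a agglutinin, read 4.91 and 6.09 (fitted 5.50, SE 0.28, adjusted p = 7e-05), against −0.05 to 0.38. All 4 tested a-specific genes of 8 listed were therefore higher in RM11-1a (median 5.79), and all 4 were higher against the mean of the other strains, by 7.30 for STE2, 6.25 for MFA1, 5.39 for STE6 and 5.37 for AGA2 (adjusted p = 6.48e-05 to 0.000492). They were called without either RM11-1a array. The other listed members lacked values in the other strains and were not tested. MFA2, the second gene for a pheromone, read 7.43 and 7.98, and BAR1, the protease that degrades alpha pheromone, read 6.63 and 6.31.

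Genes of the pheromone signalling pathway, many of them transcribed in haploid cells, were higher as well. GPA1 (YHR005C), the G protein alpha subunit, read 3.74 and 3.67, against −0.55 to −0.04 on 5 other arrays (fitted 3.71, SE 0.15, adjusted p = 2.36e-05). STE5 (YDR103W), the scaffold of the kinase cascade, read 2.98 and 3.12, against −0.48 to 0.32 (fitted 3.05, SE 0.16, adjusted p = 2.43e-05). In both genes the RM11-1a arrays lay above all others. STE12 (YHR084W), the transcription factor of the pathway, read 1.54 and 2.06, against −0.16 to 0.60 (fitted 1.80, SE 0.16, adjusted p = 0.0004). The non-homologous end-joining gene NEJ1 (YLR265C) read 2.19 and 2.55 (fitted 2.37, SE 0.25, adjusted p = 0.00194), against −0.62 to 0.62. RME1 (YGR044C), a repressor of meiosis, read 2.28 and 2.73, against −1.40 to 1.96, and its fitted 2.51 (SE 0.43, adjusted p = 0.0128) was not called without array 1 (adjusted p = 0.0600) or array 2 (adjusted p = 0.158). Among all tested genes 7.75% were called higher over DBY8268 and 4.05% against the other strains. In total 7 of 12 tested genes of this list were higher and none lower (median 1.19), and the same count, 7 of 12, was found against the other strains (median 1.28). The count over DBY8268 was 6 without array 1 and 4 without array 2, and that against the other strains 5 and 3. The kinase genes STE7, STE11 and STE20 were measured and not called, at 0.25, −0.41 and 0.17. Outside the rule for naming genes, and chosen after their values were seen, FAR1 (cell cycle arrest) read 5.71 and 6.32, STE18 (G protein gamma subunit) 3.00 and 4.07, and FUS3 (the mating kinase) 6.99 on array 2, all untested.

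Of 11 tested genes induced by pheromone, 7 were higher in RM11-1a and none lower (median 1.00), and 5 were higher against the other strains. The shares of all tested genes called higher were 7.75% and 4.05%. The remaining tested genes FUS2, FIG2, CIK1 and PRM4 were not called over DBY8268, at −0.51, −0.225, −0.2 and 0.035. Of the listed genes that were not tested, PRM6 read −3.22 and FIG1 0.93, each on array 1 only. The list leaves out PRM9, untested at −2.97 on array 2, and PRM7, which stood at −3.40 against the mean of the other strains. PRM6, FIG1 and PRM9 are named after their values were seen. FUS1 (YCL027W), a membrane protein of cell fusion, read 3.82 and 4.11, against −0.58 to 0.03 on 5 other arrays (fitted 3.97, SE 0.18, adjusted p = 3.62e-05). PRM5 (YIL117C), a membrane protein regulated by pheromone and cell wall signalling, read 2.04 and 1.65, while the other strains lay below DBY8268, at −2.95 to −1.06. It stood 3.68 above the mean of the other strains (SE 0.38, adjusted p = 0.00199). Over DBY8268 it was 1.85 (adjusted p = 0.0106), a call lost without array 1 (adjusted p = 0.156) and array 2 (adjusted p = 0.0842). AGA1 (YNR044W), the anchor subunit of agglutinin, read 1.91 and 1.47 (fitted 1.69, SE 0.24, adjusted p = 0.00641), and the call was lost without array 1 (adjusted p = 0.0864). The nuclear fusion regulator KAR4 (YCL055W) read 0.72 and 1.27 (fitted 1.00, adjusted p = 0.0242), and the call was lost without array 2 (adjusted p = 0.212). PRM10 (YJL108C) read 2.42 and 1.82 (fitted 2.12, SE 0.15, adjusted p = 0.00033), and the other strains were above DBY8268 as well, at 0.54 to 1.19. The count over DBY8268 was 4 without array 1 and 3 without array 2, and against the other strains 3 in each case. RDH54 (YBR073W), a DNA translocase of recombination, read 2.40 and 2.42, against −0.51 to −0.03 (fitted 2.41, SE 0.15, adjusted p = 6.03e-05). It was named for a run of neighbouring genes on chromosome II, YBR071W, HSP26 and RDH54, all 3 higher in RM11-1a. The call of YBR071W was lost without array 1 (adjusted p = 0.203) and array 2 (adjusted p = 0.109), and HSP26 had a value on array 2 only.

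Genes of daughter-cell separation, which daughters use to digest the septum that joins them to the mother, were low in RM11-1a. DSE1 (YER124C), a daughter-specific cell wall protein, read −5.76 and −5.14, against −1.91 to −0.91 on the 6 arrays of the other strains. Its fitted ratio was −5.45 (SE 0.25, adjusted p = 1.09e-05), 43.7-fold lower than in DBY8268. DSE2 (YHR143W), a secreted daughter-specific protein, read −4.76 and −4.64, against −1.33 to −0.83 (fitted −4.70, SE 0.14, adjusted p = 2.91e-06). The groups did not overlap, although each of the other strains also lay below DBY8268. The endochitinase gene CTS1 (YLR286C) read −3.86 and −4.25, against −1.28 to −0.62 (fitted −4.06, SE 0.20, adjusted p = 1.31e-05). The glucanase-like gene SCW11 (YGL028C) read −3.61 and −3.65, against −1.05 to −0.60 (fitted −3.63, SE 0.15, adjusted p = 6.8e-06). The glucanase gene DSE4 (YNR067C) read −2.32 and −3.06, against −1.38 to −0.30 (fitted −2.69, SE 0.22, adjusted p = 0.000264).

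The difference to the other strains was tested too. Against their mean RM11-1a was lower by −4.0 in DSE1 (SE 0.29, adjusted p = 0.000316), −3.63 in DSE2 (SE 0.16, adjusted p = 6.48e-05), −3.18 in CTS1 (SE 0.23, adjusted p = 0.000292), −2.86 in SCW11 (SE 0.17, adjusted p = 0.000134) and −1.84 in DSE4 (SE 0.25, adjusted p = 0.00772). Over the list, 9 of 12 tested genes were lower over DBY8268 and none higher (median −1.49, against −0.74 for the mean of the other strains), with 7 lower without array 1 and 6 without array 2. Among all tested genes 6.65% were called lower over DBY8268, and 2.22% lower and 4.05% higher against the other strains. Against the other strains 6 genes of the list were lower and 1 higher. The higher gene was AMN1 (YBR158W), whose product antagonises exit from mitosis in daughters. It read 0.61 and 0.41, against −1.21 to −0.25, a difference of 1.23 (SE 0.23, adjusted p = 0.0257) that was not called without array 1 (adjusted p = 0.154) or array 2 (adjusted p = 0.0609). Over DBY8268 AMN1 was not called (0.51, adjusted p = 0.147). EGT2 (YNL327W), another separation gene, read −0.56 and −0.88 and lay within the range of the other strains (−0.88 to −0.28). Its call over DBY8268 (−0.72, adjusted p = 0.0412) was lost without array 1 (adjusted p = 0.0576) and array 2 (adjusted p = 0.288), and without any single K9 or YPS163 array (adjusted p = 0.0511 to 0.0684).

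**Figure D2:**
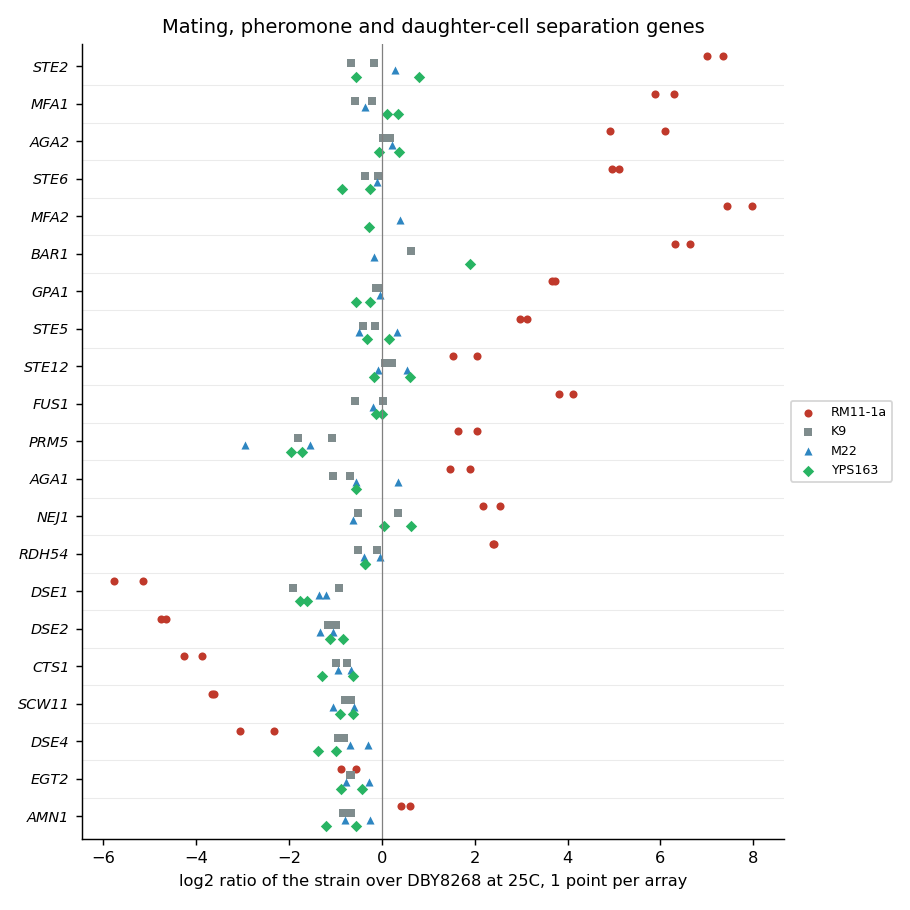
Log2 ratios over DBY8268 at 25C (x axis) of mating, pheromone and separation genes (rows), 1 point per array, coloured and shaped by strain. The RM11-1a points of STE2 lie at 7.01 and 7.34 and those of DSE1 at −5.76 and −5.14, apart from all points of the other strains.

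Beside LEU2 itself, 3 of 11 tested genes of branched-chain amino acid synthesis were higher in RM11-1a and none lower (median 0.51), and the same count was found against the other strains. The shares of all tested genes called higher were 7.75% over DBY8268 and 4.05% against the other strains. LEU2 was lower than in DBY8268 (fitted −5.69, SE 0.27, adjusted p = 4.77e-05, from array 2 and the dye term). OAC1 (YKL120W), a mitochondrial transporter of oxaloacetate that also exports the leucine precursor isopropylmalate, read 2.22 and 2.26, against −0.06 to 1.11 (fitted 2.24, SE 0.14, adjusted p = 5.54e-05). BAT1 (YHR208W), the mitochondrial branched-chain aminotransferase, read 1.34 and 2.03, against −0.52 to 0.75 (fitted 1.69, SE 0.15, adjusted p = 0.000411). For both genes the RM11-1a arrays lay above those of every other strain. LEU1 (YGL009C), the isomerase that acts just before LEU2, read 1.71 and 1.89, against −1.24 to 0.44 (fitted 1.80, SE 0.25, adjusted p = 0.00323), and was not called without array 1 (adjusted p = 0.0825). Against the other strains OAC1 was higher by 1.56 (SE 0.16, adjusted p = 0.00201), BAT1 by 1.52 (SE 0.17, adjusted p = 0.00342) and LEU1 by 1.94 (SE 0.29, adjusted p = 0.00996). The LEU1 difference was lost without array 1 (adjusted p = 0.103) or array 2 (adjusted p = 0.0622). LEU4 (first step of leucine synthesis), ILV2 (acetolactate synthase) and ILV5 (the next enzyme) were not called, at 0.64, 0.16 and 0.56. ILV5 passed without M22 array 1 (adjusted p = 0.0482) or M22 array 2 (adjusted p = 0.0451), and against the other strains without M22 array 1 (adjusted p = 0.0206). Without array 1, 2 genes of the list were higher and 1 lower in each comparison.

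Beside URA3, 3 pyrimidine genes were called against the other strains and none over DBY8268. The shares of all tested genes called higher were 4.05% and 7.75%. URA3 itself was lower in RM11-1a than in DBY8268 (fitted −6.28, SE 0.31, adjusted p = 5.52e-05, from array 2 and the dye term). Of the other 13 genes of pyrimidine synthesis and uptake none was called by limma over DBY8268 (median 0.07), with 3 lower at an unadjusted p below 0.05. Of all 5306 tested genes 1485 had such a p over DBY8268 in either direction. Against the other strains 3 were higher, and this was 2 without either RM11-1a array. URA1 (YKL216W), dihydroorotate dehydrogenase, read −0.37 and −0.44 in RM11-1a, and −3.96 to −2.91 on the 6 other arrays. The difference was 2.88 (SE 0.18, adjusted p = 0.000134). URA4 (YLR420W), dihydroorotase, read 0.62 and 0.21, against −2.07 to −1.19 (difference 1.92, SE 0.22, adjusted p = 0.00314). URA2 (YJL130C), which encodes the enzyme of the first steps, read 0.92 and 0.04, against −1.21 to −0.01. Its difference of 1.18 (SE 0.26, adjusted p = 0.0436) was lost without array 1 (adjusted p = 0.220) and array 2 (adjusted p = 0.0545), and without any single K9 or YPS163 array (adjusted p = 0.0667 to 0.0816). That none passed over DBY8268 does not show equal levels in the 2 strains.

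**Figure D3:**
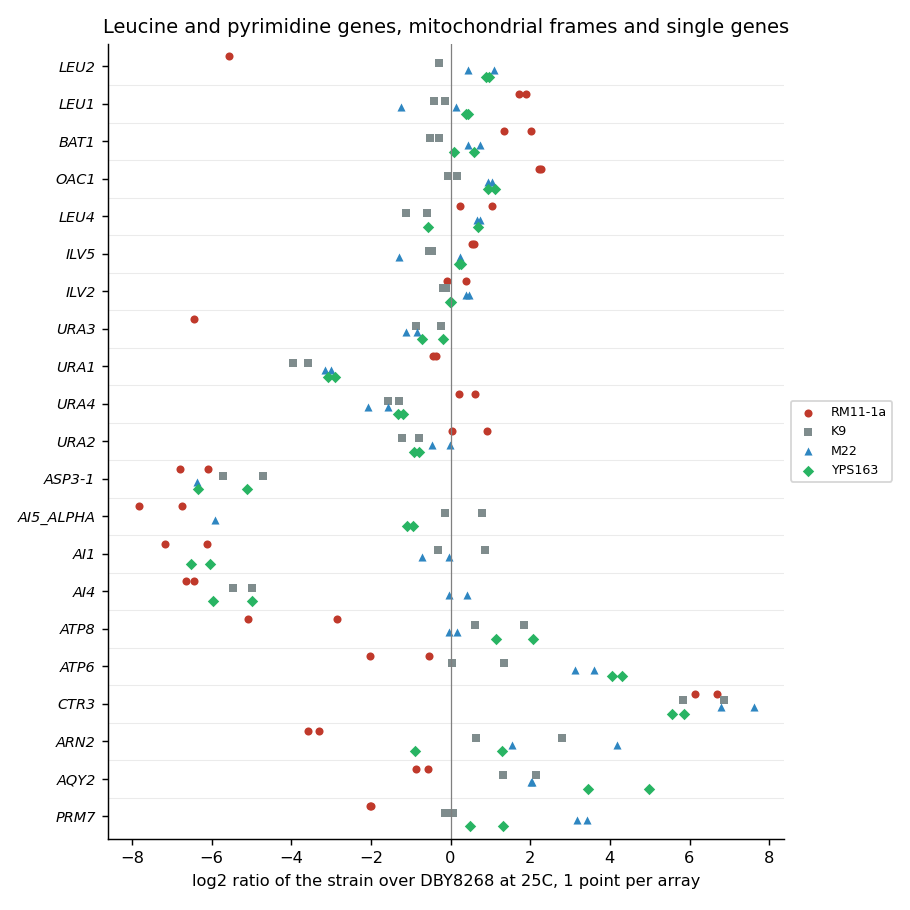
Log2 ratios over DBY8268 at 25C (x axis) of leucine and pyrimidine genes, ASP3-1, mitochondrial frames and other genes of the text (rows), 1 point per array, coloured and shaped by strain. URA1 lies at −0.37 and −0.44 in RM11-1a and between −3.96 and −2.91 in the other strains, and CTR3 lies above 5 in every strain.

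Frames of the mitochondrial genome included the lowest ratio of all. Their counts over DBY8268 stand beside 7.75% higher and 6.65% lower among all tested genes. The table held 28 such frames, 20 were tested, and 9 were lower and 2 higher in RM11-1a (median −0.53), with 7 lower and 3 higher without array 1 and 5 lower and none higher of 17 tested without array 2. AI5_ALPHA (Q0070), an intron frame of the cytochrome oxidase gene COX1, read −7.82 and −6.73, against −5.92 to 0.78 on 5 other arrays. Its fitted ratio of −7.28 (SE 0.24, adjusted p = 9.04e-06) was a 155-fold difference. AI1 (Q0050), another intron frame of COX1, read −7.18 and −6.12, and YPS163 read −6.03 and −6.52 while K9 and M22 lay between −0.71 and 0.86. AI4 (Q0065) read −6.45 and −6.64, and both K9 (−5.45 and −4.99) and YPS163 (−4.99 and −5.97) were low as well. The low intron frames were therefore shared with different strains from frame to frame, and RM11-1a did not pass the threshold against YPS163 for AI1 (adjusted p = 0.680) or for AI4 (adjusted p = 0.104), nor against K9 for AI4 (adjusted p = 0.0679). COX1 itself was higher in RM11-1a than in DBY8268 (0.71 and 1.34, fitted 1.03, adjusted p = 0.0119).

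ATP8 and ATP6, subunits of the ATP synthase that the mitochondrial genome encodes, were set apart from every other strain. ATP8 (Q0080) read −5.09 and −2.85, against −0.05 to 2.06, a difference to the other strains of −4.93 (SE 0.55, adjusted p = 0.00314). ATP6 (Q0085) read −2.03 and −0.53, against 0.04 to 4.30, a difference of −4.02 (SE 0.38, adjusted p = 0.00128). Neither overlapped the other strains, which was a condition for genes named for the lowest differences. Over DBY8268 ATP8 was −3.97 (SE 0.48, adjusted p = 0.00171), and ATP6 was −1.28 (adjusted p = 0.0423), a call lost without array 1 (adjusted p = 0.437), array 2 (adjusted p = 0.0612) or the dye term (adjusted p = 0.0672), and with arrays centred on their medians (adjusted p = 0.0557). Spots for these frames respond to the sequence of the strain as well as to the amount of RNA, and the part of either in the ratios was not tested.

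Retrotransposon frames, whose copies are nearly identical and share signal, so that they are not independent genes, were mostly low. Of 80 tested Ty frames 56 were lower and 10 higher in RM11-1a than in DBY8268 (median −5.25), with a median of −4.76 for the mean of the other strains. Over all tested genes 6.65% were called lower and 7.75% higher, and against the other strains 2.22% and 4.05%. YNL054W-A read −6.50 and −5.60, against −8.14 to −4.12 (fitted −6.05, SE 0.17, adjusted p = 2.91e-06), and its difference to the other strains was −0.01 (adjusted p = 0.984). A smaller set ran the other way. YDR261W-A read 2.02 and 3.33 in RM11-1a, against −4.06 to −0.19 in the other strains (fitted 2.68 over DBY8268, SE 0.25, adjusted p = 0.00108). YDR034C-C read 1.5 and 3.20, against −5.20 to 0.21 (fitted 2.35, adjusted p = 0.00497). YGR038C-B read 0.11 and 0.63 and was not called over DBY8268, while the other strains lay at −5.00 to −2.18 (difference 4.25, SE 0.20, adjusted p = 6.48e-05). Against the other strains 24 Ty frames were higher and 4 lower, among the latter YHL009W-B (−2.96 and −2.51, difference −2.20, adjusted p = 0.00382). The 10 higher frames over DBY8268 were 9 without array 1 and 3 without array 2, and the 24 were 24 without either. Without the Ty frames, 682 genes were called over DBY8268 and 292 against the other strains.

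The asparaginase genes of the ASP3 cluster, a tandem set of copies on chromosome XII of S288c, were low in RM11-1a and in the other strains alike. ASP3-1 (YLR155C) read −6.80 and −6.10, against −6.36 to −4.71 on 5 other arrays (fitted −6.45, SE 0.16, adjusted p = 4.6e-06, 87.4-fold lower than in DBY8268), and its difference to the other strains was −0.52 (adjusted p = 0.188). The cluster formed part of a run of 6 neighbouring tested genes called lower, with 2 Ty frames, YLR159W and YLR161W. The sodium pump genes ENA5, ENA2 and ENA1, near-identical neighbours on chromosome IV, formed another run. ENA5 (YDR038C) read −4.37 and −4.11, against −4.33 to 0.50, and ENA1 (YDR040C) −3.13 and −2.70, against −4.08 to −0.27. The ENA1 arrays lay inside the range of the other strains and 1 ENA5 array lay just below it, and both ranges were wide. Over DBY8268 they were called at −4.24 (SE 0.19, adjusted p = 3.61e-05) and −2.92 (SE 0.16, adjusted p = 7.82e-05). All 3 pump genes were also called lower against the mean of the other strains (ENA5 by −2.0, adjusted p = 0.00619, ENA2 by −1.17, adjusted p = 0.0410, and ENA1 by −1.04, adjusted p = 0.0301), and none was without array 1 (adjusted p of ENA5 0.0514) or without array 2 (0.0738). The calls of ENA1 and ENA2 were also lost without either K9 array or without YPS163 array 1 (adjusted p of ENA1 0.0880, 0.0663 and 0.0732), and that of ENA2 without YPS163 array 2 (adjusted p = 0.0660).

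Called genes were more frequent near chromosome ends. Among the 15 outermost annotated genes at each of 32 chromosome ends, 370 were tested and 30.3% were called over DBY8268, against 12.6% of the 4739 others. Against the other strains the shares were 11.6% and 5.42%. Without Ty frames they were 29.9% and 11.5% over DBY8268. In total 19 runs of at least 3 neighbouring tested genes were called in 1 direction. Runs at the ends of chromosomes II, V, VI, XII and XVI consisted of frames of the repeated Y' element, such as YRF1-4 and YRF1-5 (−1.98 each) on XII and YEL077C (−1.91) on V, copies of which cannot be told apart on such spots. Higher runs were PLM2, SAM2 and LPP1 on IV (0.85, 1.10 and 0.86), all 3 of which lost their call without array 1 (adjusted p = 0.179, 0.136 and 0.162) and PLM2 also without array 2 (adjusted p = 0.0597), and the phospholipase genes PLB2 and PLB1 with ADI1 on XIII (1.32, 1.87 and 1.15).

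Single genes outside these groups set RM11-1a apart from the other strains. NFG1 (YLR042C), a cell wall gene of filamentous growth, read 4.19 and 3.69, against −2.76 to 0.16 on 4 other arrays (fitted 3.94, SE 0.43, adjusted p = 0.00445), and its difference of 5.29 (adjusted p = 0.00968) was lost under robust moderation (adjusted p = 0.0611). AQY2 (YLL052C), a water channel, read −0.88 and −0.57 and was not called over DBY8268 (adjusted p = 0.165), while the other strains read 1.32 to 4.97. Its difference was −3.39 (SE 0.34, adjusted p = 0.00181). PRM7 (YDL039C) read −2.02 and −2.01, and the frame next to it, YDL038C, read −2.34 and −2.25, against −0.14 to 3.42 and −0.08 to 3.47. Their differences were −3.41 (SE 0.23, adjusted p = 0.000196) and −3.69 (SE 0.22, adjusted p = 0.000134). Neither overlapped the other strains, but genes named for the lowest differences had to lie outside that range, so this follows from the choice. CWP1 (YKL096W), a cell wall mannoprotein, read 3.14 and 2.76, against −0.68 to 1.84, a difference of 2.68 (SE 0.31, adjusted p = 0.00342). RNR3 (YIL066C), the DNA damage-inducible subunit of ribonucleotide reductase, read 1.64 and 2.07, against −1.22 to 0.18, a difference of 2.26 (SE 0.20, adjusted p = 0.00209). SER3 (YER081W), of serine synthesis, read 3.41 and 3.61, against 0.69 to 2.14, a difference of 2.04 (SE 0.25, adjusted p = 0.00449) lost without array 1 (adjusted p = 0.0563). The maltose permease gene MAL11 (YGR289C) read −2.06 and −1.77, against −0.82 to 0.92, a difference of −1.87 (SE 0.21, adjusted p = 0.00551) lost without array 1 (adjusted p = 0.0514) or array 2 (adjusted p = 0.0503).

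Metal uptake genes showed both kinds of pattern. Counts below stand beside 7.75% higher and 6.65% lower among all tested genes. CTR3 (YLR411W), a high-affinity copper transporter, read 6.70 and 6.14 in RM11-1a and 5.55 to 7.61 on the 6 arrays of the other strains. It was 85.6-fold higher than in DBY8268 (fitted 6.42, SE 0.23, adjusted p = 4.6e-06), with a difference to the other strains of 0.01 (SE 0.27, adjusted p = 0.994). Of 21 iron uptake genes 5 were higher and 1 lower (median 0.44), which became 3 and none without array 1 and none in either direction without array 2. FRE2 (YKL220C), a ferric reductase, read 5.24 and 4.83, against 0.02 to 6.61 (fitted 5.04, SE 0.63, adjusted p = 0.00203, and 0.0518 without array 2). The mannoprotein FIT2, which retains siderophore iron at the wall, read 2.85 and 6.03, so its arrays differed by more than the typical spread. ARN2 (YHL047C), a siderophore transporter, was the lower one, at −3.31 and −3.57, against −0.90 to 4.17 (fitted −3.44, SE 0.72, adjusted p = 0.0201). Its difference to the other strains was −5.03 (SE 0.83, adjusted p = 0.0156). Both calls were lost without array 1 (adjusted p = 0.235 and 0.132) and without array 2 (adjusted p = 0.120 and 0.106).

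Several pathways separated RM11-1a from DBY8268 with no gene called in limma against the other strains, which share the DBY8268 reference. At an unadjusted p of limma below 0.05 that contrast held 3 phosphate, 3 ergosterol and 16 respiratory genes, and 1206 of all 5306 tested genes. The counts over DBY8268 that follow stand beside 7.75% higher and 6.65% lower among all tested genes. Phosphate starvation genes were lower, 14 of 17 (median −1.59, against −1.58 for the mean of the other strains), with 12 without array 1 and 5 without array 2 (1 was lower against the other strains without array 1). Among them the phosphate transporter gene PHO84 (YML123C) read −2.52 and −3.14 (fitted −2.83, SE 0.33, adjusted p = 0.00152), inside the −3.58 to −1.38 of the other strains. SPL2 (YHR136C), a regulator of low-affinity phosphate uptake, read −4.32 and −3.56 (fitted −3.94, adjusted p = 0.00023), also inside their range of −5.37 to −2.85. Ergosterol genes were higher, 16 of 28 (median 0.86, against 0.64), with 4 without array 1 and 12 without array 2. ERG28 (YER044C), a scaffold of the sterol enzymes, read 2.70 and 2.46, against 2.10 to 2.85 (fitted 2.58, SE 0.17, adjusted p = 7e-05). Genes of the tricarboxylic acid cycle and respiratory chain were higher, 19 of 48 (median 0.49, against 0.91), with 7 without array 1 and 16 without array 2. RIP1 (YEL024W), the iron-sulfur protein of the cytochrome bc1 complex, read 2.45 and 1.60, against 2.28 to 2.89 (fitted 2.03, SE 0.21, adjusted p = 0.000854).

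Among heme- and oxygen-regulated genes, HAP1 (YLR256W), the heme-responsive activator whose S288c allele carries a Ty insertion, read −1.54 and −1.62, against −1.89 to −0.47 (fitted −1.58, SE 0.15, adjusted p = 0.000587, difference to the other strains −0.47 with adjusted p = 0.168). CYC1 (YJR048W), cytochrome c, read 2.82 and 1.81, against 1.65 to 3.44 (fitted 2.32, SE 0.26, adjusted p = 0.00116). CYC1 thus lay above DBY8268 in all 4 strains, and HAP1 below it. Among all tested genes 7.75% were called higher and 6.65% lower. Of the 16 tested genes of this list 6 were higher and 2 lower over DBY8268 (median 0.63), with 3 and 2 without array 1 and 4 and 2 without array 2. In the contrast with the other strains 1 was higher, and none without either array. That gene, YHB1, the nitric oxide oxidoreductase, is named after its value was seen (difference 1.75, adjusted p = 0.0135). It read 0.29 and 0.15, inside the 0.14 to 0.85 of K9 and M22, while YPS163 read −6.14 and −5.00.

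Biosynthetic and stress genes differed in part. For comparison, 7.75% of all tested genes were called higher and 6.65% lower over DBY8268, and 4.05% and 2.22% against the other strains. Of 52 genes of amino acid synthesis outside the branched-chain and sulfur pathways, 15 were higher and 1 lower (median 0.27), with 5 and none without array 1 and 9 and none without array 2. ARG1 (YOL058W), of arginine synthesis, read 2.68 and 3.16, inside the 1.79 to 3.36 of the other strains (fitted 2.92, adjusted p = 0.000237). HIS5 (YIL116W), of histidine synthesis, read 2.26 and 1.63 (fitted 1.95, SE 0.17, adjusted p = 0.00038) and stood 1.18 above the other strains (adjusted p = 0.0165), a difference lost without array 1 (adjusted p = 0.112). Of 16 purine genes 8 were higher and none lower (median 0.72, against 0.80 for the other strains), with 4 higher without array 1 and 6 higher and 1 lower without array 2. A count of 1 was lower against the other strains, with both arrays and without either. Of 28 general stress genes 7 were higher and 2 lower (median 0.28), with 3 and 1 without array 1 and 2 and 2 without array 2. Here 6 were higher against the other strains, with 3 without array 1 and 1 without array 2. GPD1 (YDL022W), of glycerol synthesis, read 1.74 and 1.35, against −0.38 to 1.13 (fitted 1.55, SE 0.18, adjusted p = 0.00166). DDR48 (YMR173W), a stress protein, read 1.25 and 1.37 and stood 2.23 above the other strains (adjusted p = 0.00457). That DDR48 difference was lost without array 1 (adjusted p = 0.0581) or array 2 (adjusted p = 0.0568).

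Of 22 chaperone genes 8 were lower and 1 higher over DBY8268 (median −0.29, against −0.43 for the other strains), with none without array 1 and 1 lower without array 2. HSP104 (YLL026W), the disaggregase, read −1.01 and −1.72 (fitted −1.37, SE 0.20, adjusted p = 0.00401), inside the −2.23 to −0.33 of the other strains, and its call was lost without array 1 (adjusted p = 0.0557) and array 2 (adjusted p = 0.0575). The Hsp70 gene SSA2 (YLL024C) read −1.10 and −1.17 (fitted −1.14, adjusted p = 0.00546), with calls lost at 0.0542 and 0.0663. KAR2 (YJL034W), the Hsp70 of the endoplasmic reticulum, was the higher one, at 0.91 and 0.66 (fitted 0.79, SE 0.17, adjusted p = 0.0250), against −0.49 to 0.02, and its call was lost without array 1 (adjusted p = 0.234) and array 2 (adjusted p = 0.0807). No gene was called over DBY8268 among 131 cytosolic ribosomal proteins (median −0.19), 29 proteasome genes (median −0.13) or 25 antioxidant genes (median −0.14). At an unadjusted p of limma below 0.05 these lists held 4, 2 and 6 genes, where 1485 of all 5306 tested genes had such a p. Over all tested genes 7.75% were called higher and 6.65% lower. Of 84 ribosome biogenesis genes 9 were lower and none higher (median −0.35), with none without array 1 and 6 without array 2.

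Sugar, sulfur and wall genes gave mixed directions. Their counts over DBY8268 stand beside 7.75% higher and 6.65% lower among all tested genes. Of 13 hexose transporter and glucose sensor genes 4 were higher and 2 lower (median 0.07, against 0.74 for the other strains), with none without array 1 and 2 and 1 without array 2. The near-identical transporter genes HXT6 and HXT7 read 1.94 and 1.22 and 1.51 and 0.83, and of these 4 values the one of HXT6 on array 1 lay above the other strains (at most 1.87) and the rest inside their range. HXT1 (YHR094C), the low-affinity transporter, read −0.49 and −0.70 (not called over DBY8268, adjusted p = 0.0641) and was lower than the other strains by −1.36 (SE 0.20, adjusted p = 0.00968), a call lost without array 2 (adjusted p = 0.0707). Of 30 methionine and sulfur genes 6 were higher and 2 lower (median 0.35, against 0.70), with none without array 1 and 4 and 1 without array 2. CYS4 (YGR155W), of cysteine synthesis, read −0.89 and −0.78, against −0.33 to 0.33 (fitted −0.84, SE 0.14, adjusted p = 0.00812), and was not called without array 1 (adjusted p = 0.0954). Of 22 cell wall protein genes 3 were higher and 1 lower (median 0.31), CWP1 above among the former, with 2 and none without either array. None of 6 tested flocculation and adhesion genes was called by limma over DBY8268, and 0 had an unadjusted p below 0.05, with FLO11, the main adhesin of pseudohyphal growth, at −0.32 and 0.46. Of 68 mitochondrial ribosomal protein genes 7 were higher (median 0.29, against 0.69), a share near the 7.75% of all tested genes, with 3 without array 1 and none without array 2. Of the same genes 4 were lower against the other strains, and none without either array, with 29 lower at an unadjusted p below 0.05.

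**Figure D4:**
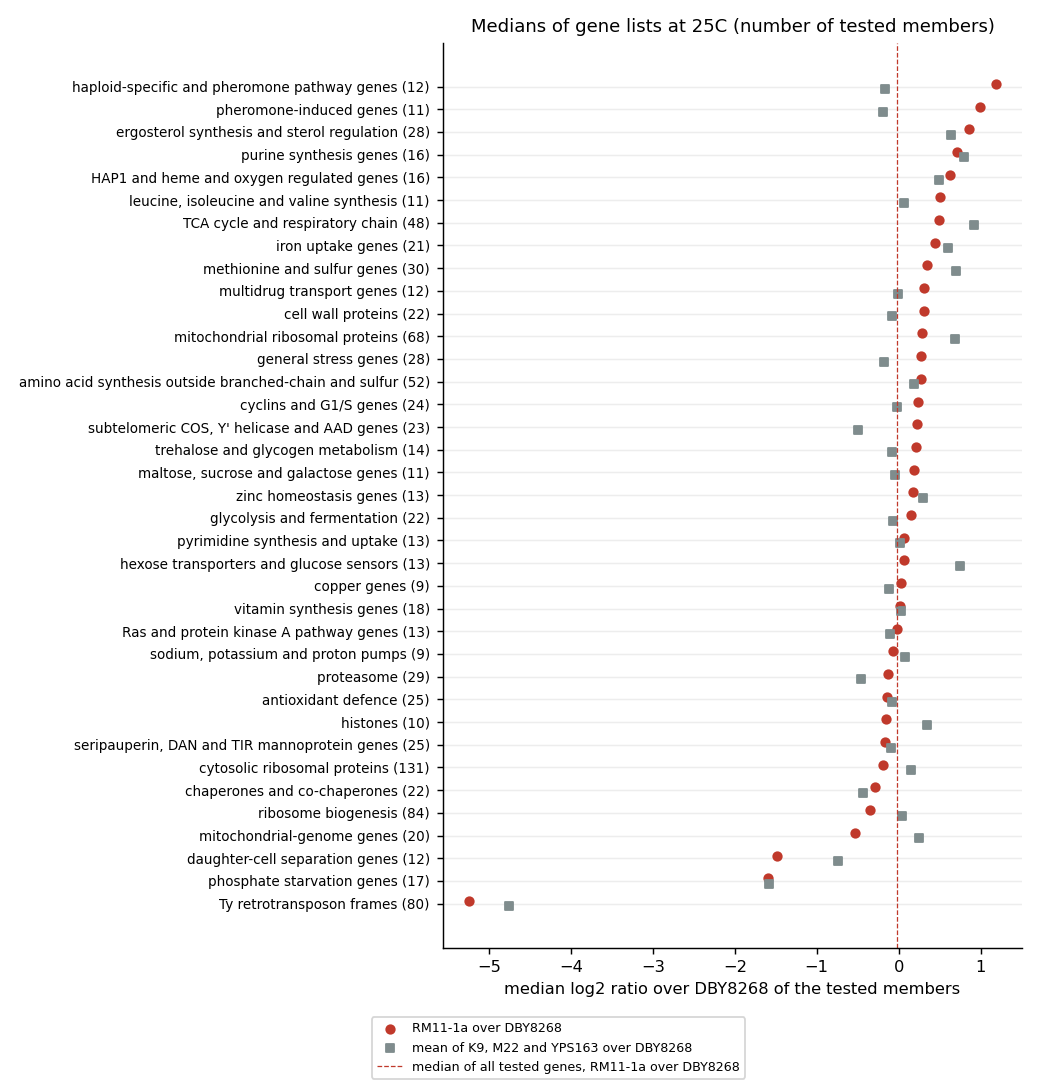
Median log2 ratio over DBY8268 (x axis) of the tested members of each gene list with at least 8 such members (rows, number in parentheses), for RM11-1a (circles) and for the mean of the other 3 strains (squares); the dashed line is the RM11-1a median over all genes. The circles and squares lie together for phosphate genes (−1.59 and −1.58) and apart for the haploid-specific genes (1.19 and −0.16), and the 2 sets of ratios share the DBY8268 reference.

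The heat arrays compare each strain with its own RNA at 25C, and the number of them with a value was counted for genes of the text. Why a spot was left empty there is not stated. STE2 had a value on all 12 heat arrays of RM11-1a and on 4 of 12 of DBY8268, and BAR1 on 12 and 2. PRM5 had values on 7 and 0. In the other direction LEU2 had values on 5 RM11-1a and 12 DBY8268 arrays, URA3 on 8 and 12, ASP3-1 on 5 and 12, and AI1 on 4 and 12. The frame YIL080W, which read −3.09 and −3.05 at 25C, had a value on 1 RM11-1a heat array and on 12 of DBY8268. By contrast HSP104 and PHO84 had values on all 12 arrays of both strains, and DSE1 and DSE2 on 9 of 12 in RM11-1a and all 12 in DBY8268. These genes were chosen after their values were seen, many for their ratios at 25C, so the counts are a description of them and no check of the ratios.

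**Figure D5:**
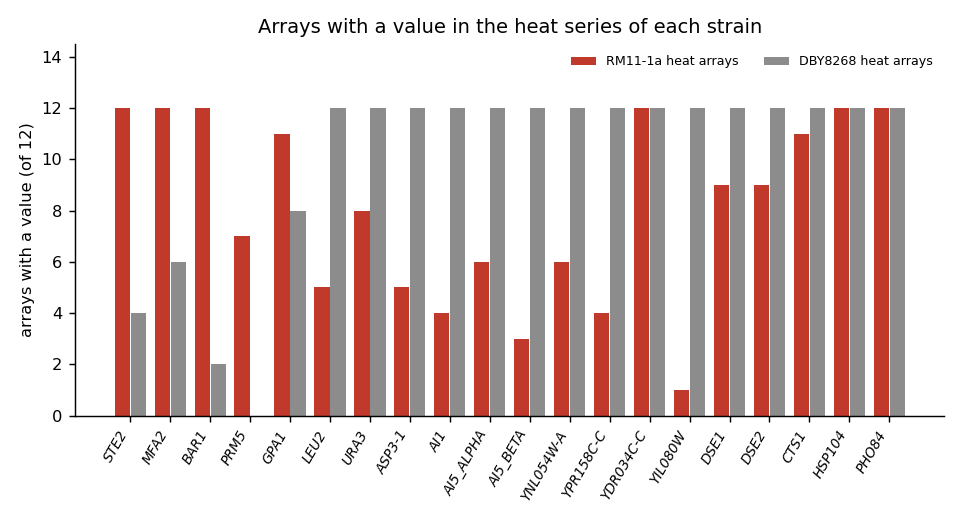
Number of heat arrays with a value, of 12 (y axis), for genes of the text (x axis), in RM11-1a and in DBY8268. STE2 and BAR1 have 12 values in RM11-1a and 4 and 2 in DBY8268, and AI1 has 4 in RM11-1a and 12 in DBY8268.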

How the data were processed

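The authors deposited a table of log ratios, taken here as log2, with 1 value per reading frame and array and missing spots left empty. The log base, any centring and how each array was normalized are not given in the sources used here. Scale and centring are thus unknown, and every fold assumes base 2. Per the labels' protocols, RNA was extracted with hot phenol and labelled indirectly with cyanine dyes on amino-allyl dUTP. The deposited log2 ratios of the 2 RM11-1a arrays correlated positively across genes although their dyes were exchanged, which shows that the sign had been aligned before deposit, and it was kept. Of 6297 frames 5832 matched a locus tag of RefSeq, used for symbols and gene order only, and 465 kept their systematic name.

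A linear model with 4 strain means and a dye term was fitted per gene to the 8 arrays at 25C with least squares, and its variances were moderated by limma 3.58.1 (R 4.3.3, tables in Python 3.11.15). Genes needed values on at least 6 arrays and 1 per strain. The residual degrees of freedom were 3 for the 4315 complete genes, the prior degrees of freedom 4.17 and the median moderated SD of an array 0.245. The limma dye term was called in 0 genes (652 at an unadjusted p below 0.05), with a median absolute size of 0.188. Adjusted p values are Benjamini-Hochberg values over all 5306 genes per contrast, with a threshold of 0.05. Where 1 RM11-1a array lacked a value, the fit used the other one and the dye term.

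The members and gene lists were chosen with earlier results of these data known, and the Ty frame list was added after the table was seen. Genes named were the markers given, the 15 highest and 15 lowest called genes over DBY8268 with the same sign on both arrays, the 10 highest and 10 lowest against the other 3 strains outside the range of all their arrays, up to 5 called members per list, members of runs of neighbours and the 3 smallest p of each main contrast. This gave 237 genes, of which 232 were tested. The procedure was tested on simulated data. No sequences were used. Alternatives are given in the closing section.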

Additional observations from a re-analysis of the deposited data

Results flagged for a closer look

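A result is given here where the ratio of RM11-1a over DBY8268 at 25C differed from the mean ratio of K9, M22 and YPS163 in the limma contrast of that difference, at an adjusted p below 0.05. Of the 232 tested genes open to being named in the text, 77 passed, and 38 of these were also called with the same sign against each of the 3 strains. All 77 values are differences in log2, and negative values are lower in RM11-1a. No explanation was tested for any of them.

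Among mating and pheromone genes the differences were 7.30 in STE2, 6.25 in MFA1, 5.39 in STE6, 5.37 in AGA2, 4.18 in FUS1, 3.87 in GPA1, 3.68 in PRM5, 3.20 in STE5, 2.89 in RME1, 2.53 in NEJ1, 2.15 in AGA1, 1.60 in STE12, 1.5 in KAR4 and 1.05 in PRM10. PRM7 stood at −3.40 and the neighbouring frame YDL038C at −3.69. Among daughter-cell separation genes they were −4.0 in DSE1, −3.63 in DSE2, −3.18 in CTS1, −2.86 in SCW11, −1.84 in DSE4 and 1.23 in AMN1. Among leucine and pyrimidine genes they were −6.16 in LEU2, −5.62 in URA3, 1.94 in LEU1, 1.56 in OAC1, 1.52 in BAT1, 2.88 in URA1, 1.92 in URA4 and 1.18 in URA2. Without RM11-1a array 1 the calls of RME1 (adjusted p = 0.0755), NEJ1 (0.0677), AGA1 (0.0836), PRM10 (0.110), AMN1 (0.154), LEU1 (0.103) and URA2 (0.220) were lost. Without array 2 those of RME1 (adjusted p = 0.209), NEJ1 (0.0945), KAR4 (0.109), PRM10 (0.114), AMN1 (0.0609), LEU1 (0.0622) and URA2 (0.0545) were lost. PRM10 was also lost without the dye term (adjusted p = 0.0659) and without any single K9 or YPS163 array. RME1 was also lost without K9 array 1 and under robust moderation (adjusted p = 0.0764).

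Mitochondrial frames differed by −4.97 in AI5_ALPHA, −4.93 in ATP8, −4.89 in AI5_BETA, −4.52 in AI1, −4.02 in ATP6 and −3.04 in AI4. Ty frames differed by 5.65 in YDR034C-C, 5.18 in YDR261W-A, 5.16 in YFL002W-B, 5.07 in YDR210W-A, 5.06 in YOR343W-B, 4.97 in YOR343W-A, 4.25 in YGR038C-B, 3.92 in YBL107W-A and −2.20 in YHL009W-B. The frame YIL080W differed by −3.66, YLR161W by −1.94, the Y' helicase gene YRF1-3 by −1.04 and YBR071W by 1.16. Calls were lost without array 1 in YIL080W (adjusted p = 0.0747), YBR071W (0.120) and YRF1-3 (0.0863), without array 2 in YBR071W (0.0989) and YRF1-3 (0.223), and without YPS163 array 2 in YLR161W (0.0565). YRF1-3 was also lost without the dye term (adjusted p = 0.0506). It was lost as well without either K9 array, either YPS163 array or M22 array 2, with differences of −1.12 to −0.94.

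Transport genes differed by −5.03 in ARN2 (siderophore transport), −3.39 in AQY2 (water channel), −2.77 in HXT9 and −1.36 in HXT1 (hexose transport), −2.0 in ENA5, −1.17 in ENA2 and −1.04 in ENA1 (sodium pumps), −1.87 in MAL11 (maltose permease) and 2.07 in PUT4 (proline permease). Metabolic genes differed by −2.12 in SNO1 (vitamin B6 synthesis), −1.75 in IMA4 (isomaltase), −0.92 in CYS4 (cysteine synthesis), 1.18 in HIS5, 1.25 in AAD14 (aryl-alcohol dehydrogenase family), 1.30 in GPD1, 1.59 in ADH5 (alcohol dehydrogenase) and 2.04 in SER3. The remaining differences were −1.37 in DBP2 (RNA helicase), −1.16 in HHF1 (histone H4), 1.06 in KAR2, 1.49 in PDE1 (cyclic AMP phosphodiesterase), 1.70 in HSP26, 2.22 in DDR48, 2.26 in RNR3, 2.48 in PUF3 (RNA-binding protein), 2.68 in CWP1, 2.70 in RDH54 and 5.29 in NFG1. Without array 1 the calls of ARN2, ENA5, ENA2, ENA1, MAL11, PUT4, IMA4, CYS4, HIS5, AAD14, GPD1, ADH5, SER3, DBP2, HHF1, KAR2, PDE1, HSP26 and DDR48 were lost (adjusted p = 0.0514 to 0.216). Without array 2 those of ARN2, HXT1, ENA5, ENA2, ENA1, MAL11, PUT4, SNO1, CYS4, AAD14, GPD1, KAR2, DDR48 and PUF3 were lost (adjusted p = 0.0503 to 0.106), and without K9 array 1 that of HXT9 (adjusted p = 0.0513). HHF1 (adjusted p = 0.0563) and SNO1 (0.0929) were also lost without the dye term, and HHF1, KAR2, IMA4, HSP26 and CYS4 without K9 array 1 (0.0541 to 0.0643). The HSP26 call was further lost without K9 array 2 (difference 1.91) and without YPS163 array 2 (1.49). That of CYS4 was lost without K9 array 2 (−0.92) and without YPS163 array 1 (−0.89), and that of IMA4 without YPS163 array 1 (−1.65). ARN2 was also lost under robust moderation (adjusted p = 0.0506). The value of PUF3 rests on arrays that read 1.80 and 5.22, and it was not called without the dye term (adjusted p = 0.271). HSP26, LEU2, URA3, AI5_BETA and YLR161W had a value on array 2 of RM11-1a only, and HXT9 on array 1 only.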

How the results depend on the processing

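No named gene that was called in the main fit or in an alternative changed direction between them, over DBY8268 or against the other strains. Changes of sign in genes called in neither fit were not counted. Genes called over DBY8268 numbered 764, and 351 to 802 with 1 array of any strain left out, the lowest without RM11-1a array 1 and 508 without array 2. Requiring 2-fold gave 470. Against the mean of the other strains 333 became 148 to 328, with 166 without RM11-1a array 1, 148 without array 2 and 220 without K9 array 1. Leaving out 1 array gave 129 to 373 against K9, 139 to 240 against M22 and 159 to 422 against YPS163, the lowest without K9 array 1, RM11-1a array 2 and YPS163 array 2. The cause of these shifts was not tested. The remaining alternatives stayed within 1.5 times: values centred on array medians (779 over DBY8268 and 362 against the mean of the other strains), scaled to a common MAD (866 and 419), complete genes (569 and 267), no filter (817 and 328), slide as a random block (769 and 331), robust moderation (782 and 372), RM11-1a arrays alone (642) and, added after the data were seen, without Ty frames (682 and 292). The replicate number equals the dye orientation. Without this replicate block 703 and 300 genes were called. Same-numbered arrays correlated in their deviations at −0.04 to 0.33. The main fit holds the dye term, which equals the replicate number. Apart from the slide as a random block, no other pairing of the arrays was fitted. Of the genes named, 13 lost their call over DBY8268 without the block, 78 without RM11-1a array 1 and 53 without array 2, and against the other strains 5, 29 and 23. RM11-1a array 1 shared its slide with M22 array 1, and 235 of the 283 genes called against M22 had a value on both. Within that slide their differences departed from the fit by a median of 0.22. These arrays are part of the fit that called the genes, so this is no independent check of the slide. No signal over background was used here, and 689 frames had no RM11-1a value.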
